A study of Bos taurus with 14 samples.

Results

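PEG3, PEG10, MEST, PLAGL1 and GNAS are genes that are imprinted in mammals, and the bovine array carries 16 probe sets for them: 5 for PEG3, 5 for GNAS, 4 for MEST and 1 each for PEG10 and PLAGL1. They are all probe sets whose single annotated symbol is one of these 5 names, out of 24016 probe sets tested, of which 13292 carry 1 gene symbol. The 5 names were selected from earlier results of the same arrays. PEG3 was chosen for its difference between photoperiods in 1 probe set, Bt.11262.2.S1_at, at day -24 and averaged over days. For PEG3 those 2 comparisons, and the others that use the same arrays, are therefore a description and carry no test.

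The tissue came from mammary biopsies of dry Holstein cows, whose milking had been stopped about 60 days ahead of the calving foreseen. Each cow had been put at random under short days (SD, light for 8 h and dark for 16 h) or long days (LD, light for 16 h and dark for 8 h). The groups were SD at day -9 relative to calving (4 arrays), LD at day -9 (4 arrays), SD at day -24 (3 arrays) and LD at day -24 (3 arrays). The 14 arrays are separate samples by their labels. Whether a cow was biopsied at both days is not given in the sources used here. Age and parity of the cows are not given in the sources used here, and p-values measure the spread between these samples. Values are log2 signals as deposited, and 1 unit is a doubling of signal.

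An imprinted gene is read mainly from the copy inherited from 1 parent, because a methylation mark set in the egg or sperm silences the other copy. PEG3, PEG10, MEST and PLAGL1 are known in mammals as genes read from the father's copy. GNAS is a complex locus whose main product is read from both copies in most tissues and from the mother's copy in some. Many imprinted genes act on fetal and placental growth and are turned down after birth. In mice, dams that lack Peg3 nurse their pups poorly, and Plagl1 is a regulator of a group of imprinted genes that are expressed together. The arrays measure total signal and do not tell the parental copies apart.

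The arrays were alike in overall signal, with medians between 6.43 and 6.61. SD day -24 array 3 and LD day -9 array 4 shared 280 probe sets that were lower than in each other array by at least 0.7, and are called the 2 arrays of low signal. The name refers to these 280 alone: the medians of the 2 arrays were 6.57 and 6.56. None of the 16 probe sets is among the 280. PEG3 Bt.11262.1.S1_at and PLAGL1 were still lowest, or nearly so, in both of these arrays, so their values are given with and without them. The 3-prime minus 5-prime signal of control transcripts, a sign of RNA quality, had a mean between 0.84 and 0.99 in SD at day -9, 0.80 and 1.21 in LD at day -9, 0.98 and 1.33 in SD at day -24 and 0.90 and 1.12 in LD at day -24. It was highest in SD day -24 array 3. Of the luminal epithelial markers, keratins and milk protein genes among them, 11 of 11 had a mean above the median of all probe sets, as did 7 of 8 myoepithelial and 3 of 7 adipocyte markers. The count was 10 of 11 for fibroblast and matrix, 6 of 8 for endothelial and 4 of 4 for macrophage markers. Bulk tissue cannot tell fewer cells of a type from less RNA per cell.

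PEG3 encodes a large zinc finger protein that binds DNA. Bt.11262.1.S1_at, Bt.11262.2.S1_at and Bt.11262.3.S1_at share a cluster number in the array's naming. The probe sets differed widely in signal. Bt.5027.1.A1_at had a mean of 7.97 over the 14 arrays, above 68.8% of all probe sets, and Bt.11262.1.S1_at one of 7.41, above 61.3%. Bt.11262.2.S1_at lay at 5.19, above 32.8%. Bt.11262.3.S1_at and Bt.25754.1.A1_a_at were near the floor, at 4.24 and 4.21, below the lower quartile of the array in 14 and 13 of the 14 arrays. Since probe sets bind with different strength, these levels do not rank transcripts.

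The brightest PEG3 probe set, Bt.5027.1.A1_at, had 7.86, 7.81, 7.60 and 7.98 in SD at day -9, against 7.91, 8.11, 8.11 and 8.55 in LD at day -9. The day -24 values were 7.87, 7.86 and 7.61 in SD, against 7.68, 8.08 and 8.52 in LD. The SD arrays were tightly grouped at both days, and at each day LD held the highest array of the gene, but the groups overlapped. The lowest LD array, 7.68 at day -24, lay within the SD range.

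Bt.11262.2.S1_at, for which PEG3 was chosen, had 5.09, 4.85, 5.09 and 5.21 in SD at day -9, against 5.28, 5.05, 5.16 and 5.38 in LD at day -9. At day -24 it had 4.96, 5.01 and 4.88 in SD, against 5.27, 5.56 and 5.82 in LD. The 3 LD arrays of day -24 lay above every SD array of either day. At day -9 the groups overlapped. In group means the order was LD day -24 (5.55 ± 0.28), LD day -9 (5.22 ± 0.14), SD day -9 (5.06 ± 0.15) and SD day -24 (4.95 ± 0.07; standard deviations, n = 3 at day -24 and n = 4 at day -9). Each neighbouring pair in this order overlapped in its arrays, while groups further apart in it did not overlap.

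Bt.11262.1.S1_at had 7.27, 7.14, 7.24 and 7.54 in SD at day -9, against 7.49, 7.36, 7.73 and 7.18 in LD at day -9. Its day -24 arrays read 7.22, 7.46 and 6.25 in SD, against 7.60, 8.05 and 8.14 in LD. The day -24 groups again did not overlap, and the value of 6.25 belongs to SD day -24 array 3, 1 of the 2 arrays of low signal. Both dim probe sets stayed within 3.65 and 4.59 in all 14 arrays, and Bt.11262.3.S1_at was between 4.11 and 4.32 in SD at day -24, against 4.38 and 4.59 in LD at day -24.

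**Figure D1:**
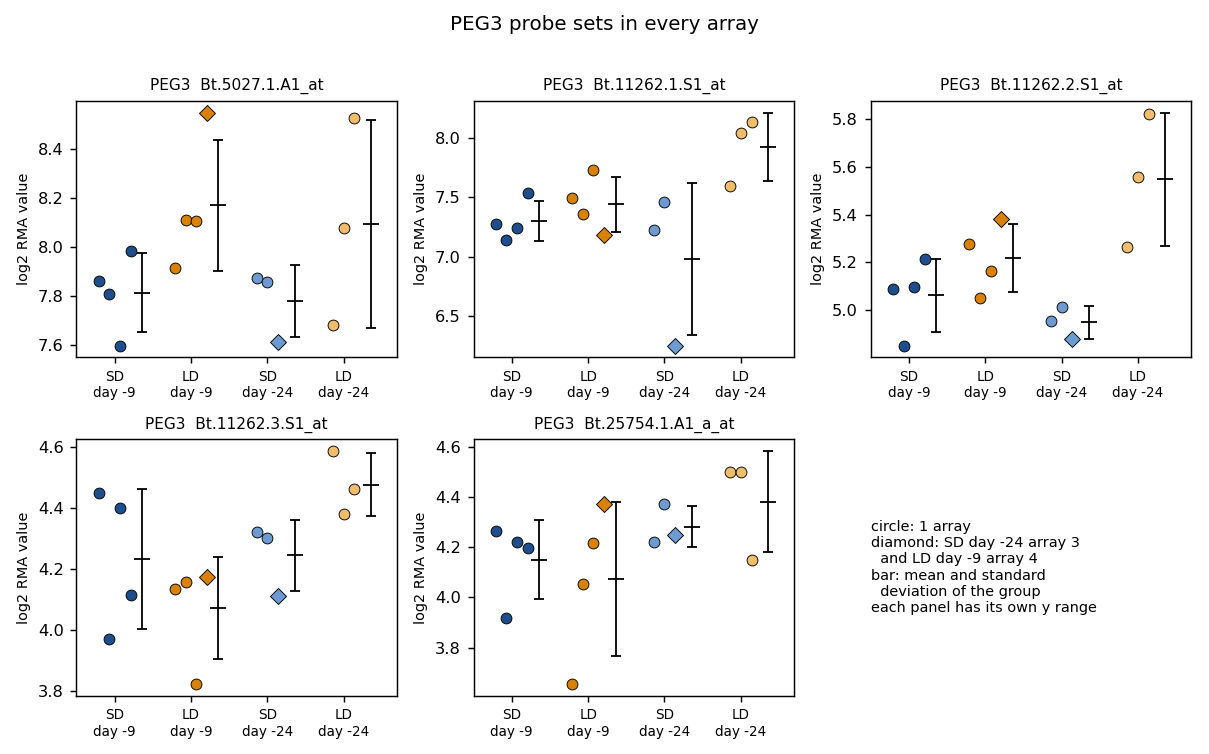
Log2 signal of the 5 PEG3 probe sets in every array, by group (SD and LD at day -9, SD and LD at day -24), with the group mean and standard deviation beside the points. In Bt.11262.1.S1_at and Bt.11262.2.S1_at the 3 LD arrays of day -24 lie above the 3 SD arrays of that day, and diamonds mark the 2 arrays of low signal.

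At day -24 the photoperiods were compared some weeks ahead of calving. All 5 PEG3 probe sets were lower in SD there, and in 3 of them the groups did not overlap, where 3.02% of all probe sets were lower without overlap. As PEG3 was chosen on this contrast, the count is a description. The difference was -0.95 in Bt.11262.1.S1_at (SE 0.27), a signal 1.94-fold lower in SD, and -0.60 in Bt.11262.2.S1_at (SE 0.15). It was -0.31 in Bt.5027.1.A1_at (SE 0.21), -0.23 in Bt.11262.3.S1_at and -0.10 in Bt.25754.1.A1_a_at.

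Single arrays carried part of these sizes. Without SD day -24 array 3 the difference of Bt.11262.1.S1_at was -0.587. Bt.5027.1.A1_at differed by -0.097 without LD day -24 array 3 and by -0.519 without LD day -24 array 1. Bt.11262.2.S1_at stayed between -0.742 and -0.463 when each array was left out in turn. The size at day -24 therefore depended on the probe set and the array, while all of these values were negative. In Bt.11262.1.S1_at and Bt.11262.2.S1_at the groups did not overlap, so leaving out a single array could not change the sign. As PEG3 was chosen on this contrast, the signs are a description.

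At day -9, close to calving, the photoperiods were compared on other arrays than at day -24, but the day -9 arrays enter the average that PEG3 was also chosen on, so no test is given for PEG3 here either. Of the 5 PEG3 probe sets, 3 were lower in SD and 2 higher, with a median of -0.14, and all overlapped, where 1.12% of all probe sets were lower and 1.34% higher without overlap. The group mean of Bt.5027.1.A1_at was 7.81 ± 0.16 (standard deviation) for SD and 8.17 ± 0.27 for LD, with n = 4 each, which gives a difference of -0.36 (SE 0.18). It was -0.23 without LD day -9 array 4, the highest array. Bt.11262.2.S1_at differed by -0.16 (SE 0.13) and Bt.11262.1.S1_at by -0.14 (SE 0.23). The dim probe sets differed by 0.16 and 0.08.

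Averaged over days, the PEG3 differences were -0.55 (SE 0.18) in Bt.11262.1.S1_at, -0.38 (SE 0.10) in Bt.11262.2.S1_at and -0.33 (SE 0.14) in Bt.5027.1.A1_at, against -0.03 and -0.01 in the dim probe sets. These SEs take all arrays as independent and make no allowance for a cow biopsied at both days. The 7 SD and 7 LD arrays overlapped in all 5, where 0.0208% of all probe sets were lower and 0.0291% higher without overlap. The difference at day -9 minus that at day -24 was 0.81 in Bt.11262.1.S1_at, 0.45 in Bt.11262.2.S1_at, 0.39 in Bt.11262.3.S1_at, 0.18 in Bt.25754.1.A1_a_at and -0.04 in Bt.5027.1.A1_at. These values share the day -24 arrays that PEG3 was chosen on, so no test is given for them. Without the 2 arrays of low signal Bt.11262.1.S1_at differed by -0.229 at day -9 and -0.587 at day -24.

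Within LD, PEG3 was lower at day -9 than at day -24 in 4 of 5 probe sets, by -0.49 in Bt.11262.1.S1_at, -0.40 in Bt.11262.3.S1_at, -0.33 in Bt.11262.2.S1_at and -0.31 in Bt.25754.1.A1_a_at, while Bt.5027.1.A1_at differed by 0.08. Only Bt.11262.3.S1_at did not overlap, where 4.66% of all probe sets were lower without overlap. Within SD the differences between days were 0.32 in Bt.11262.1.S1_at and -0.13 to 0.11 in the other 4, and all overlapped. Without the 2 arrays of low signal that of Bt.11262.1.S1_at in SD was -0.043. The LD difference uses the same LD day -24 arrays as the photoperiod difference, and both rest on them: LD day -24 was the highest group in 4 of the 5 probe sets.

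The PEG3 probe sets followed each other in part. Over the 14 arrays Pearson's r was 0.761 between Bt.11262.1.S1_at and Bt.11262.2.S1_at (Spearman's rho 0.714), and 0.923 over the 12 arrays without the 2 of low signal. With group means subtracted it was 0.433. Bt.5027.1.A1_at and Bt.11262.2.S1_at had an r of 0.698, and 0.737 with group means subtracted, so these 2 followed each other among arrays of 1 group. The dim probe sets had an r between -0.091 and 0.388 with the 3 brighter ones. All these are descriptions over arrays that share 1 normalization and 4 groups.

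**Figure D2:**
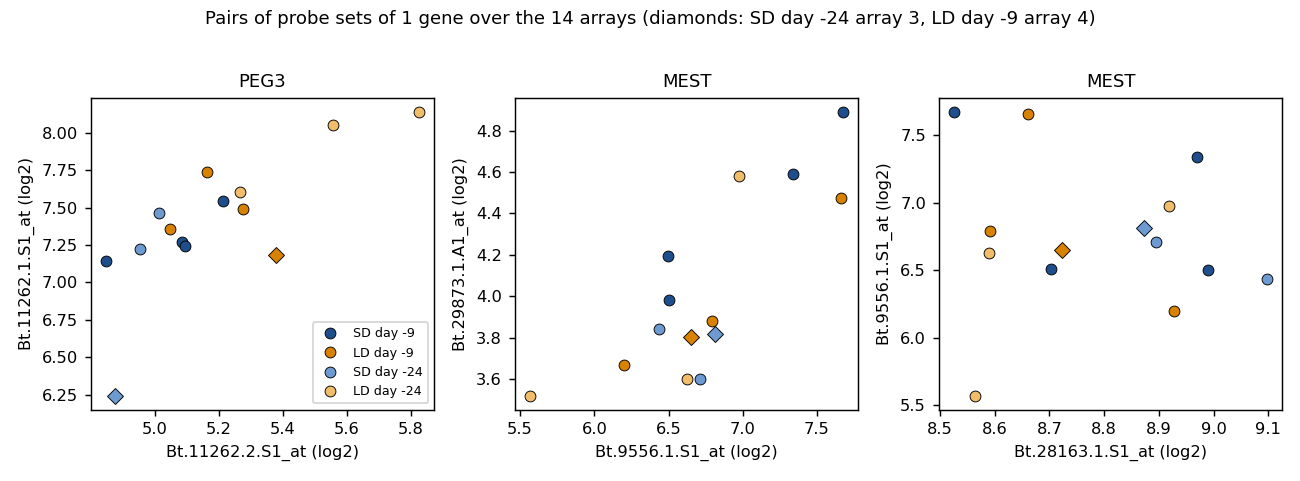
Log2 signal of 1 probe set against another of the same gene in the 14 arrays, coloured by group: PEG3 Bt.11262.1.S1_at against Bt.11262.2.S1_at, MEST Bt.29873.1.A1_at against Bt.9556.1.S1_at, and MEST Bt.9556.1.S1_at against Bt.28163.1.S1_at. In the first 2 panels both probe sets are high in the same arrays (r of 0.761 and 0.805), and in the third they are not (r of -0.102).

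Across the whole table limma called 0 of 24016 probe sets past an adjusted p of 0.05 in each of the 7 comparisons, and thus 0 of the 16. The share of all probe sets called was 0%. At day -24, 580 probe sets (2.42%) had an unadjusted p under 0.05 between SD and LD. The same count was 666 (2.77%) at day -9 and 467 (1.94%) averaged over days. The smallest adjusted p of any probe set was 1, 0.984 and 0.15 in these 3 comparisons. Of the 11 probe sets of the other 4 genes, 1, 0 and 0 had an unadjusted p under 0.05 in them. Their median differences were -0.05, 0.07 and 0.022, against 0.012, 0.001 and 0.005 for all probe sets.

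**Figure D3:**
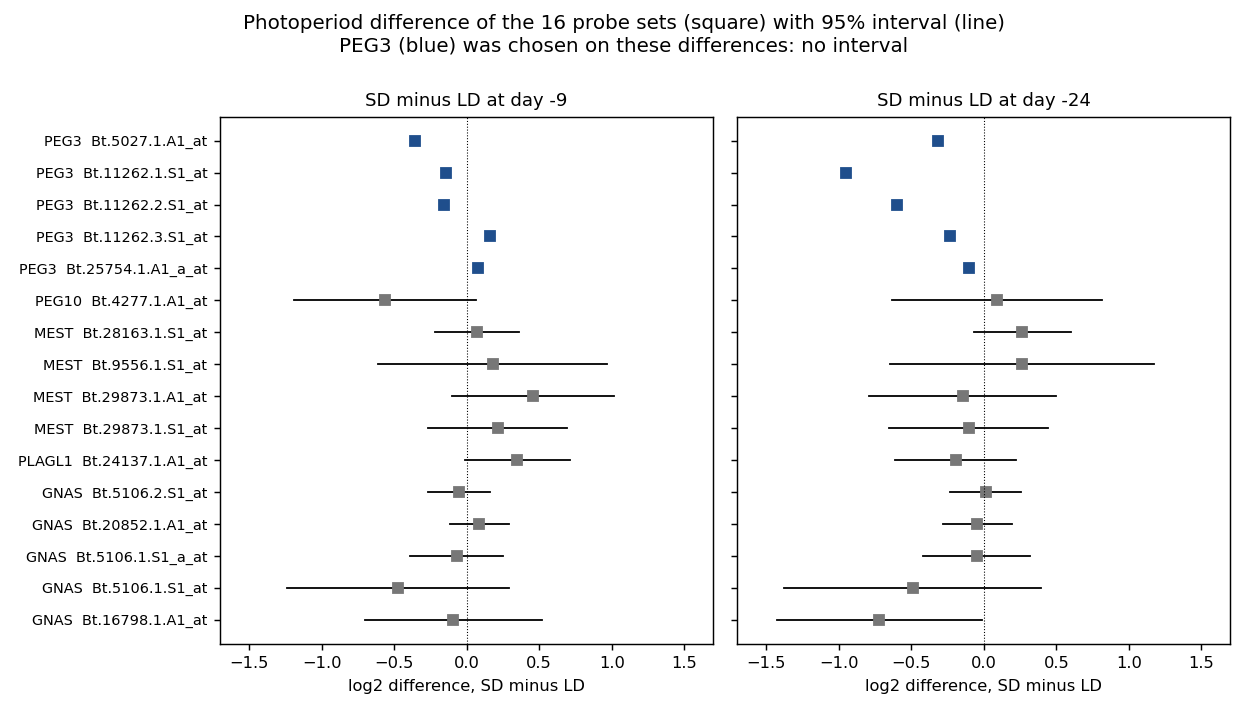
Log2 difference SD minus LD of the 16 probe sets at day -9 and at day -24, with 95% intervals as lines for the other genes; PEG3 is in blue and has no interval, since it was chosen on these differences. At day -9 all 11 intervals hold 0, and at day -24 the PEG3 values run from -0.95 to -0.10.

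PLAGL1 encodes a zinc finger transcription factor that can halt the cell cycle. It had 1 probe set of fairly high signal, with a mean of 8.90, above 81% of all probe sets. Its values were 9.15, 8.90, 8.71 and 9.03 in SD at day -9, against 8.68, 8.79, 8.66 and 8.27 in LD at day -9. At day -24 they were 8.93, 9.37 and 8.63 in SD, against 9.13, 9.04 and 9.35 in LD. LD at day -9 was the lowest group, with 3 of its 4 arrays below every SD array of day -9, and LD at day -24 was the highest in mean.

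Between photoperiods at day -9, PLAGL1 differed by 0.35 (95% interval -0.01 to 0.71, limma adjusted p = 0.984). At day -24 it differed by -0.19 (-0.61 to 0.22, limma adjusted p = 1). The difference of these 2 values was 0.54 (-0.01 to 1.1, limma adjusted p = 0.9). The sign thus differed between days, and no test passed the threshold. Without the 2 arrays of low signal, each the lowest of its group in PLAGL1, the values were 0.24 at day -9 and -0.02 at day -24, and without SD day -24 array 2 the second was -0.390.

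Within LD, PLAGL1 averaged 8.60 ± 0.23 at day -9 (standard deviation, n = 4) and 9.17 ± 0.16 at day -24 (standard deviation, n = 3). The 4 arrays of day -9 all lay below the 3 of day -24. The difference was -0.57 (95% interval -0.96 to -0.18, limma adjusted p = 0.651), a signal 1.49-fold lower at day -9, and its unadjusted p of 0.00755 was number 204 in rank. In this comparison 7.47% of all probe sets had an unadjusted p under 0.05, and 4.66% were lower without overlap. Without LD day -9 array 4 it was -0.462. In SD the same difference was -0.03 (-0.42 to 0.36), or -0.202 without SD day -24 array 3.

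PEG10 derives from a retrotransposon, and mice without it fail to form a placenta. Its 1 probe set had a mean of 6.19, above 45.3% of all probe sets. It had 5.36, 6.11, 5.62 and 6.05 in SD at day -9, against 6.32, 5.68, 6.95 and 6.44 in LD at day -9. The arrays of day -24 read 6.23, 6.57 and 6.40 in SD, against 5.78, 7.01 and 6.14 in LD. SD at day -9 was the lowest group, and the LD arrays were spread over more than 1 unit at both days.

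In SD the PEG10 mean was 5.79 ± 0.36 over the 4 arrays of day -9 and 6.40 ± 0.17 over the 3 arrays of day -24 (standard deviations), and these did not overlap. The difference between days in SD was -0.62 (95% interval -1.29 to 0.06, limma adjusted p = 0.97), where 2.94% of all probe sets were lower without overlap and 4.56% had an unadjusted p under 0.05. In LD it was 0.04 (-0.64 to 0.71). Between photoperiods PEG10 differed by -0.56 at day -9 (-1.19 to 0.07, limma adjusted p = 0.984) and by 0.09 at day -24 (-0.63 to 0.82). Single arrays set much of the photoperiod values: at day -9 it was -0.361 without LD day -9 array 3 and -0.784 without LD day -9 array 2. At day -24 it was -0.173 without LD day -24 array 1 and 0.442 without LD day -24 array 2. The difference between days in SD ran from -0.725 to -0.474, while that in LD ran from -0.228 to 0.388.

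MEST encodes an enzyme of the alpha/beta hydrolase fold that in mice is linked to the size of fat cells. Its 4 probe sets were of 2 sorts. Bt.28163.1.S1_at had a mean of 8.79, above 79.6% of all probe sets, and varied little. Bt.9556.1.S1_at had a mean of 6.75 with a spread within groups of 0.58, wider than in 93.8% of probe sets. Bt.29873.1.A1_at and Bt.29873.1.S1_at were dim, at 4.03 and 3.83, below the lower quartile of the array in 12 and 14 of the 14 arrays.

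Bt.28163.1.S1_at had 8.99, 8.97, 8.70 and 8.53 in SD at day -9, against 8.66, 8.93, 8.59 and 8.72 in LD at day -9. At day -24 it had 9.10, 8.89 and 8.87 in SD, against 8.92, 8.59 and 8.57 in LD. SD held the highest array at both days, with overlap. The difference was 0.07 at day -9 (95% interval -0.22 to 0.36, limma adjusted p = 0.984) and 0.26 at day -24 (-0.07 to 0.60, limma adjusted p = 1).

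The other 3 MEST probe sets followed each other from array to array, and the brightest did not follow them. Pearson's r over 14 arrays was 0.805 between Bt.9556.1.S1_at and Bt.29873.1.A1_at, 0.797 between the dim pair and 0.650 between Bt.9556.1.S1_at and Bt.29873.1.S1_at. Their r with Bt.28163.1.S1_at lay between -0.133 and -0.001. Bt.9556.1.S1_at was highest in SD day -9 array 4 (7.67) and LD day -9 array 1 (7.66) and lowest in LD day -24 array 3 (5.57), so its high arrays came from both photoperiods. The brightest and the other MEST probe sets thus order the arrays differently, and which transcripts each one binds is not given in the sources used here.

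Between days in SD, Bt.29873.1.A1_at averaged 4.41 ± 0.40 at day -9 (standard deviation, n = 4) and 3.75 ± 0.13 at day -24 (standard deviation, n = 3). These groups did not overlap, where 2.96% of all probe sets were higher without overlap. The difference was 0.66 (95% interval 0.06 to 1.26, limma adjusted p = 0.97). It was 0.35 in Bt.9556.1.S1_at, 0.17 in Bt.29873.1.S1_at and -0.16 in Bt.28163.1.S1_at, all with overlap. Adipocyte marker signal, given here as the mean over 7 markers centred on all arrays, lay between -0.15 and 0.55 in SD at day -9 and -0.58 and 0.02 in SD at day -24. In LD it lay between -0.11 and 0.475 at day -9 and -0.38 and 0.05 at day -24, while Bt.29873.1.A1_at differed by 0.06. The part of adipocytes in the MEST values was not tested beyond a fit with this mean as a covariate, in which no probe set was called.

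GNAS encodes the stimulatory G protein alpha subunit, which passes the signal of hormone receptors on to adenylyl cyclase. Its probe sets differed widely in signal, and Bt.5106.2.S1_at had a mean of 12.69, above 99.7% of all probe sets. Bt.20852.1.A1_at and Bt.5106.1.S1_a_at had means of 10.29 and 10.28, each above 93.9%. Bt.5106.1.S1_at and Bt.16798.1.A1_at were lower, at 5.56 and 5.14. GNAS has further transcripts from other promoters, and which of them each probe set binds is not given in the sources used here.

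The brightest GNAS probe set, Bt.5106.2.S1_at, varied little. It had 12.48, 12.73, 12.74 and 12.72 in SD at day -9, against 12.73, 12.72, 12.78 and 12.65 in LD at day -9. At day -24 it had 12.67, 12.63 and 12.74 in SD, against 12.54, 12.81 and 12.65 in LD. Apart from SD day -9 array 1 and LD day -24 array 1, all arrays lay between 12.63 and 12.81. Its spread within groups, 0.10, was narrower than in all but 3.3% of probe sets, and that of Bt.20852.1.A1_at, 0.09, than in all but 2.4%. Bt.5106.1.S1_a_at, as bright as the second, varied more, with a spread of 0.21 and arrays between 9.99 and 10.72.

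The intervals of the bright probe sets followed their spread. Between photoperiods Bt.5106.2.S1_at differed by -0.05 at day -9 (95% interval -0.26 to 0.16) and by 0.01 at day -24 (-0.23 to 0.26). Bt.20852.1.A1_at differed by 0.09 at day -9 (-0.12 to 0.29) and by -0.04 at day -24 (-0.28 to 0.19). Bt.5106.1.S1_a_at differed by -0.07 at day -9 (-0.39 to 0.25) and by -0.05 at day -24 (-0.42 to 0.32). In LD, Bt.20852.1.A1_at averaged 10.20 ± 0.08 at day -9 (standard deviation, n = 4) and 10.37 ± 0.03 at day -24 (standard deviation, n = 3). These groups did not overlap, where 4.66% of all probe sets were lower without overlap. The difference was -0.17 (-0.39 to 0.05, limma adjusted p = 0.662).

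The lower GNAS probe sets varied far more. Bt.16798.1.A1_at had 4.33, 5.45, 5.08 and 4.81 in SD at day -9, against 4.36, 5.23, 5.40 and 5.05 in LD at day -9. At day -24 it had 4.86, 5.33 and 4.86 in SD, against 5.17, 5.95 and 6.09 in LD, so LD day -24 held the 2 highest arrays. It differed between photoperiods by -0.09 at day -9 (95% interval -0.70 to 0.52) and by -0.72 at day -24 (-1.43 to -0.01, unadjusted p = 0.046, limma adjusted p = 1). Within LD it differed between days by -0.73 (-1.39 to -0.07, limma adjusted p = 0.651). Bt.5106.1.S1_at ranged from 4.75 to 6.57, with its lowest group mean in SD at day -9 (5.14 ± 0.35, standard deviation, n = 4) and its highest in LD at day -24 (6.04 ± 0.62, standard deviation, n = 3), and differed by -0.48 at day -9 and -0.49 at day -24, both with overlap. With single arrays left out these ran from -0.749 (without LD day -9 array 1) to -0.230 (without LD day -9 array 3) at day -9, and from -0.850 (without SD day -24 array 3) to -0.226 (without LD day -24 array 2) at day -24.

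LD at day -24 was thus the group of highest mean in PEG3 Bt.11262.1.S1_at, Bt.11262.2.S1_at, Bt.11262.3.S1_at and Bt.25754.1.A1_a_at, in PLAGL1, and in GNAS Bt.20852.1.A1_at, Bt.5106.1.S1_a_at, Bt.5106.1.S1_at and Bt.16798.1.A1_at. In the other 7 probe sets, PEG3 Bt.5027.1.A1_at, PEG10, the 4 of MEST and GNAS Bt.5106.2.S1_at, it was not. The share of all probe sets with this group highest was not counted. PEG3 was chosen for a difference that uses the LD day -24 arrays. The names are thus a description, and whether the genes share a pattern was not tested. Comparisons between days in LD and between photoperiods at day -24 share these 3 arrays. The differences of PEG3 Bt.11262.2.S1_at, PLAGL1 and GNAS Bt.16798.1.A1_at were -0.33, -0.57 and -0.73 between days in LD, and -0.60, -0.19 and -0.72 between photoperiods at day -24.

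**Figure D4:**
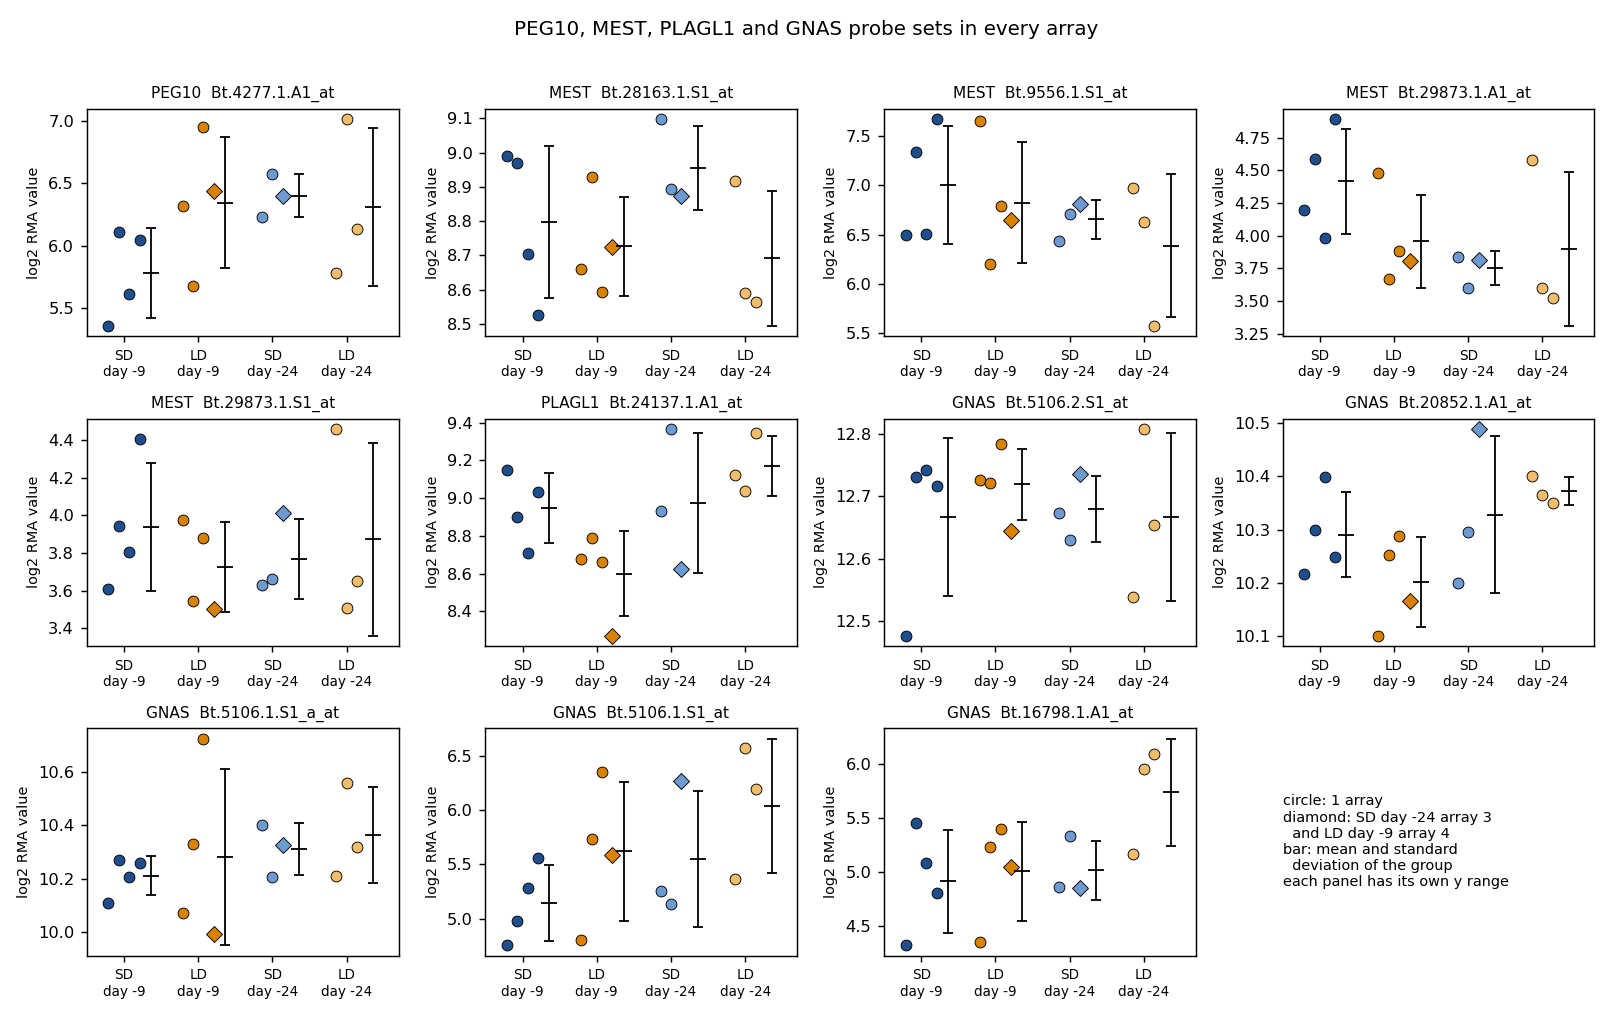
Log2 signal of the 11 probe sets of PEG10, MEST, PLAGL1 and GNAS in every array, by group (SD and LD at day -9, SD and LD at day -24), with the group mean and standard deviation. The y range differs between panels: GNAS Bt.5106.2.S1_at spans 12.48 to 12.81 and GNAS Bt.5106.1.S1_at 4.75 to 6.57.

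Between days, 1 of the 11 probe sets of the other genes had an unadjusted p under 0.05 in the average over photoperiods, where 7.72% of all probe sets did. That was PLAGL1 at -0.30 (95% interval -0.58 to -0.02, limma adjusted p = 0.639). In LD 2 of the 11 did, PLAGL1 and GNAS Bt.16798.1.A1_at, where 7.47% of all probe sets did. In SD 1 of the 11 did, MEST Bt.29873.1.A1_at, where 4.56% of all probe sets did. For the photoperiod by day difference it was 0 of the 11, where 4.15% of all probe sets had one. The median of the 11 was -0.082 in LD, -0.037 in SD and -0.091 averaged, against 0.003, -0.015 and 0.001 for all probe sets.

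The genes whose pattern was most like PEG3 were looked for with its brightest probe set, Bt.5027.1.A1_at, among 10758 probe sets of other genes with a mean above the lower quartile. Over the 14 arrays the highest r belonged to the MHC class II genes BOLA-DQB (0.811) and BOLA-DQA5 (0.779), LTA4H (0.794), which makes leukotriene B4, the small GTPase gene RABL2B (0.793) and the membrane peptidase gene MME (0.782). With group means subtracted they were SPATA5L1 (0.933), LIN52 (0.931), NAPG (0.909), ARRB2 (0.889) and CEP41 (0.888). The names before and after that subtraction share none. Over the 12 arrays without the 2 of low signal they were MRPS28, NAT14, CORO1B, NUMB and PRMT3, with an r between 0.834 and 0.859, so the names depended on these arrays. Over the 14 arrays PEG10 had an r of 0.294, PLAGL1 of -0.099 and the brightest probe sets of MEST and GNAS of -0.447 and 0.044. PEG3 Bt.11262.2.S1_at would stand at place 56, and Bt.11262.1.S1_at at place 643.

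Neighbours of the 5 genes were read from RefSeq's gene table of a bovine assembly, used for order alone because the array files name no build. PEG3 lies between MGC157368 and USP29, which have no probe set under those names, and of a list of 8 genes of the PEG3 domain 0 were measured. PEG10 lies beside SGCE, which encodes epsilon-sarcoglycan and is known in mouse and human as imprinted together with PEG10. SGCE Bt.3126.1.A1_at lay between 8.69 and 8.89 in SD at day -9, 8.53 and 9.01 in LD at day -9, 9.15 and 9.42 in SD at day -24 and 8.96 and 9.26 in LD at day -24. It differed between days by -0.46 in SD, where the groups did not overlap and 2.94% of all probe sets were lower without overlap. In LD it differed by -0.25. PEG10 differed by -0.62 in SD and 0.04 in LD.

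Averaged over photoperiods SGCE Bt.3126.1.A1_at differed by -0.36 between days (SE 0.09, limma adjusted p = 0.636). The second SGCE probe set, Bt.29910.1.S1_at, differed by 0.035, with -0.047 in SD and 0.117 in LD, so the probe sets disagree. MEST lies between CEP41 and COPG2. CEP41 differed by -0.279 between photoperiods at day -9 and by 0.235 at day -24, while COPG2 had low signal, with a mean of 3.95. PLAGL1 differed by 0.35 and -0.19 at these days. Beside it lie SF3B5, a splicing factor gene, at -0.221 and 0.153, and on the other side ZC2HC1B at -0.068 and -0.211. LTV1, next to ZC2HC1B, had 0.069 and -0.174 in Bt.13257.1.A1_at and 0.176 and -0.241 in Bt.28462.1.S1_at. The neighbours thus held values of either sign at both days.

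Of 17 further genes of the imprinted gene network, described in mouse as expressed together with Plagl1 targets, 14 were measured and 0 passed the threshold in any of the 7 comparisons. Between photoperiods averaged over days 4 were below 0 and 10 above, with a median of 0.035. Between days averaged over photoperiods 11 were below 0 and 3 above, with a median of -0.122, against 0.001 for all probe sets. Of the 14, 2 had an unadjusted p under 0.05, where 7.72% of all probe sets had one. These were SGCE and IMPACT, which restrains the stress kinase GCN2 and is imprinted in mouse.

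The 4 arrays of IMPACT lay between 8.03 and 8.24 in SD and 7.51 and 8.31 in LD at day -9. Its 3 arrays lay between 8.04 and 8.78 in SD and 8.24 and 8.53 in LD at day -24. Its difference between days was -0.38 (SE 0.13, limma adjusted p = 0.636). NDN, which encodes the growth suppressor necdin, differed by -0.64 between days in SD (limma adjusted p = 0.97) and by 0.22 in LD. The list thus held values of either sign, with no member past the threshold.

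**Figure D5:**
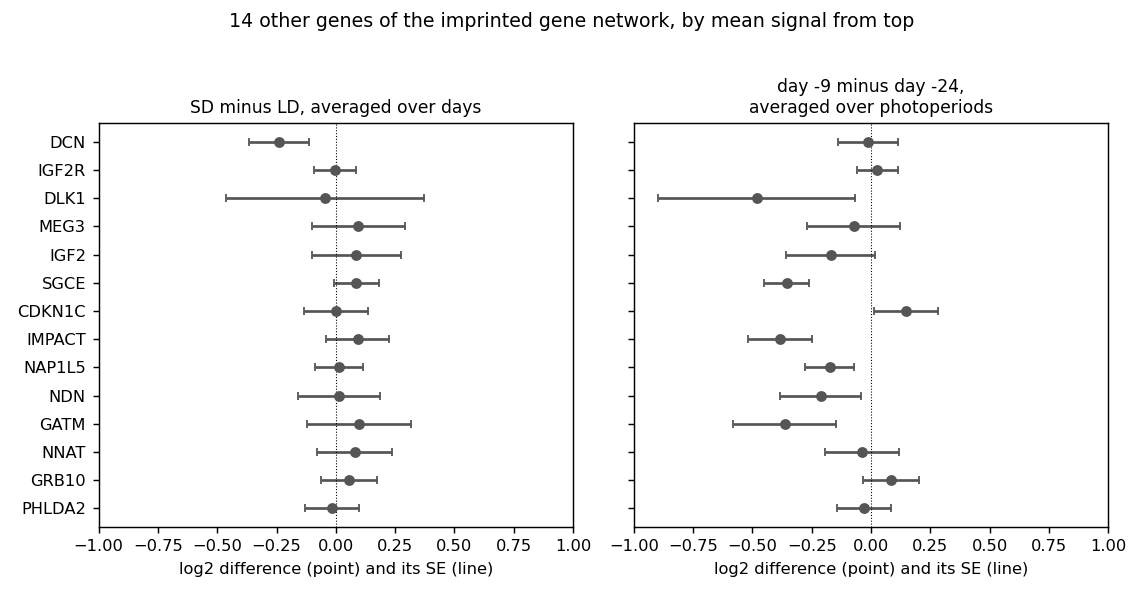
Log2 differences of the 14 measured genes of the imprinted gene network, SD minus LD averaged over days and day -9 minus day -24 averaged over photoperiods, with the SE as lines; genes run from the highest mean signal at the top. Between days 11 of 14 points lie below 0, SGCE and IMPACT among them, and between photoperiods 10 of 14 lie above 0.

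Of 44 other genes known as imprinted in at least 1 mammal, 22 were measured and 0 passed the threshold in any comparison. Averaged over days, 17 were lower in SD and 5 higher, with a median of -0.059, and 0 had an unadjusted p under 0.05 by limma. At day -24 the count was also 17 and 5, with a median of -0.091, against 47.3% of all probe sets below 0. The genes of smallest p lay in the comparison between days in LD: the protease inhibitor TFPI2 (-0.48), the homeobox gene DLX5 (-0.58, of low signal) and the cell cycle inhibitor RB1 (-0.33), with a limma adjusted p = 0.651 for each. The second DLX5 probe set, Bt.8476.1.A1_at, also of low signal, differed by 0.001 there, so the DLX5 probe sets disagree.

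The stimulatory G protein and cAMP pathway, in which GNAS acts, had 26 of 36 genes measured, and 0 passed the threshold in any comparison. In LD 18 of 26 were higher at day -9 than at day -24 and 8 lower, with a median of 0.109. ADCY6, an adenylyl cyclase, differed by 0.38 there, and GNAI3, an inhibitory alpha subunit, by -0.36 (limma adjusted p = 0.651 each). The second ADCY6 probe set, Bt.11069.2.S1_at, differed by 0.190. Between photoperiods averaged over days 15 were below 0 and 11 above, with a median of -0.013, and the phosphodiesterase gene PDE4A differed by -0.18 (limma adjusted p = 1).

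Of 11 partners and targets described for PEG3 and PLAGL1, mostly in mouse and human cells, 8 were measured and 0 passed the threshold. BAX, a cell death gene whose product acts downstream of Peg3 in mouse cells, lay between 7.74 and 7.84 in the 4 LD arrays of day -9 and between 6.71 and 7.39 in the 3 LD arrays of day -24. BAX is named for the smallest p of this list over the 7 comparisons. Its difference between days in LD was 0.78 (SE 0.17, limma adjusted p = 0.651), where 7.47% of all probe sets had an unadjusted p under 0.05. In SD it was 0.14. Between photoperiods BAX differed by 0.478 at day -24 and by -0.167 at day -9. LD at day -24 was its lowest group in mean, and the differences in LD and at day -24 share those 3 arrays. CDKN1A, a cell cycle inhibitor, differed by 0.54 in LD, and ADCYAP1R1, a receptor gene under PLAGL1 control in human cells, by -0.30 in SD at low signal.

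Cell type marker signal is given as the mean of the markers of a type, each centred over all arrays. The mean of the 11 fibroblast and matrix markers lay between -0.23 and 0.06 in the SD arrays and -0.195 and 0.40 in the LD arrays of day -9, against -0.22 to 0.13 in SD and -0.16 to 0.12 in LD at day -24, all overlapping. Of the 6 macrophage markers 4 were measured, and their mean lay between -0.80 and 0.14 in SD and 0.17 and 0.76 in LD at day -9, without overlap, and between -0.40 and -0.28 in SD and -0.325 and 0.15 in LD at day -24. The luminal mean lay between -0.16 and -0.01 at day -24 in both photoperiods together and between -0.08 and 0.38 at day -9, and the endothelial mean overlapped between photoperiods at both days. The part of any cell type in the PEG3 difference was not tested beyond 3 marker means entered as covariates, those of fibroblasts, adipocytes and luminal cells; macrophage markers were not among them. Under these covariates Bt.11262.2.S1_at and Bt.5027.1.A1_at kept their sign at both days, while Bt.11262.1.S1_at at day -9 was 0.023 with the fibroblast covariate. As PEG3 was chosen on these arrays, the kept signs are a description.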

How the data were processed

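Mammary biopsies were measured on 14 Affymetrix bovine arrays. The authors deposited log2 values per probe set, made by robust multi-array average (RMA) per the submitters' processing notes; software version, settings and genome build are not given in the sources used here. The labels' protocols state polyadenylated RNA copied from an oligo(dT) primer, so signal weighs the 3-prime end of transcripts. Arrays give no counting depth, and their number limits the precision.

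From these values 112 control probe sets were left out and limma 3.58.1 in R 4.3.3 was fitted to 24016 probe sets with 1 mean per group, 7 contrasts, two-sided tests and Benjamini-Hochberg adjustment over all probe sets, with a threshold of 0.05. Differences are SD minus LD and day -9 minus day -24. The fit was tested on simulated data. Symbols came from the platform annotation, where 13292 probe sets have 1 symbol, 86 several and 10638 none. Gene neighbours came from RefSeq's table of the ARS-UCD2.0 assembly.

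The members and lists were chosen with earlier results of these data known. All 16 probe sets are described. A listed gene is counted by its probe set of highest mean, and up to 3 genes of smallest p per list are named, plus the 5 most like PEG3. Neighbours, further probe sets of a named gene and the likeness over 12 arrays were added after the values were seen. The alternatives were leaving out each array, a replicate block, array weights, robust and trended variance, a filter on low signal, centring or repeated quantile normalization, and 3 marker covariates.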

Additional observations from a re-analysis of the deposited data

Results flagged for a closer look

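Of the 32 groups of 4 arrays looked at, over the 16 probe sets and both day -9 groups, 2 held an array far from the other 3. Dixon's test compares the gap to the nearest array with the range of the group, and chance alone flags about 5% of groups. PEG3 Bt.11262.3.S1_at was 3.824 in LD day -9 array 3, where the other 3 lay between 4.134 and 4.175, and the gap took 0.885 of the range, above the critical value. This probe set is of low signal in all 14 arrays. GNAS Bt.5106.2.S1_at was 12.477 in SD day -9 array 1, where the other 3 lay between 12.716 and 12.742, and the gap took 0.902 of the range.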

How the results depend on the processing

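Under each of the 25 alternatives limma called 0 of the 16 probe sets in all 7 comparisons, and the low signal filter left no value for the PEG3 and MEST probe sets below it. With the replicate block 0 were called too, PLAGL1 differed between days by -0.259 and PEG10 by -0.349, and no call changed. Of 19 same-numbered pairs, with r between -0.342 and 0.331, 9 were over 0.1. The 54 pairs of unlike number had r between -0.382 and 0.58. Pairs of an SD and an LD array cannot share a cow, and those of the same number had r between -0.342 and 0.304. Whether the numbers stand for something other than a cow, such as a batch, was not tested. Same-numbered pairs within a photoperiod had r of 0.331, 0.187 and -0.313 in LD and 0.042, 0.219 and 0.246 in SD. Whether the numbers pair the samples is therefore not settled, and the main tests, between days or averaged over days, used no pairing. PEG3 Bt.5027.1.A1_at, Bt.11262.1.S1_at and Bt.11262.2.S1_at kept their sign under all 25 alternatives at day -24 and averaged over days. The dim Bt.11262.3.S1_at and Bt.25754.1.A1_a_at kept theirs under all 24 with a value at day -24. Averaged over days they kept it under 22 and 16 of 24. As PEG3 was chosen on these comparisons, the kept signs are a description. At day -9 Bt.11262.1.S1_at was 0.023 with the fibroblast covariate. Over left-out arrays, at day -9 PEG3 Bt.25754.1.A1_a_at ran from -0.064 to 0.175, and averaged over days PLAGL1 ran from -0.020 to 0.165 between photoperiods, and GNAS Bt.5106.2.S1_at from -0.052 to 0.015 between photoperiods and from -0.012 to 0.055 between days. GNAS Bt.5106.2.S1_at was also 0.002 with the fibroblast and 0.017 with the luminal covariate between photoperiods, and -0.024 between days with arrays centred on their medians. The cause of these sign changes was not tested. Probe sets below the lower quartile of an array are close to background, which limits both dim PEG3 and both dim MEST probe sets.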
